A study of Sus scrofa with 6 samples.

Results

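Neurotrophins and their receptors were followed in cultured cells from the ear cartilage of a pig, and 6 gene models of the 19670 in the deposited table are described: the ligands BDNF and NTF3 and the receptors NGFR, NTRK2, NTRK3 and SORT1. For 5 of them the model was found by its symbol and for NTF3 by its protein name. The genes were chosen with results of the same contrast known. Their fold changes and p-values therefore describe where they stand among all models and are no independent support.

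Enzymes freed the cells (auricular cartilage primary cells) from the external ears of 1 pig, aged 4 months, with wild-type PPARD. The animal was a hybrid of Duroc with Landrace × Large White, written Duroc × (Landrace × Large White). The control group received DMSO, the solvent, and the treated group received GW0742, which activates PPARD, a nuclear receptor for fatty acids, both for 24 h. Each group has 3 libraries, and the title of the series names PPARD and cartilage growth. Whether each library had its own culture is not in the labels, and the p-values cover no more than the spread among libraries, which may be technical.

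Neurotrophins are small secreted growth factors that are made as longer proforms and cut by proteases such as furin. The mature proteins act through Trk receptor tyrosine kinases, with BDNF binding NTRK2 and neurotrophin-3 (NTF3) binding mainly NTRK3. NGFR, a member of the tumour necrosis factor receptor family, binds all mature neurotrophins weakly and, together with sortilin (SORT1), binds the proforms.

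The libraries held between 13133894 and 16913742 estimated reads, and 3 reads, taken as the floor, correspond to between 0.178 and 0.230 CPM, the read count scaled to the depth of the library. PPARD stood at 51.5 ± 3.8 CPM under DMSO and 55.7 ± 2.5 CPM under GW0742 (SD, n = 3). Its known targets ANGPTL4 and PDK4 rose, with log2 fold changes of 3.14 ± 0.15 and 4.05 ± 0.30 (SE, edgeR adjusted p = 0.000193 and 0.00151). PDK4 had 4, 5 and 4 reads in the DMSO libraries and 50, 83 and 79 in the GW0742 libraries. The size of its fold therefore rests on a base near the floor. Markers of cartilage cells were present, with ACAN at 816 ± 34 and 576 ± 16 CPM and COL2A1 at 511 ± 29 and 474 ± 23 CPM. The marker MATN1 was under the floor in both group means, at 0.105 and 0.111 CPM, and the fibroblast marker COL1A2 stood at 39574 ± 2201 and 35118 ± 2271 CPM. Markers of other cells that the cultures could hold are given beside NGFR.

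Of the 6 genes described here 5 had enough reads to be tested, and none of the 5 passed in edgeR. Over all models, 0.262% of 14146 passed at an adjusted p under 0.05, 0.184% higher and 0.0778% lower. DESeq2, an alternative test that called 3.12% of all models (1.46% higher and 1.65% lower), called 1 of the 5, NGFR, higher. At an unadjusted p under 0.05 edgeR gave 2 of the 5, NGFR and NTRK3, where 16.8% of all tested models had one. The groups did not overlap for the same pair, higher with GW0742 for NGFR and lower for NTRK3, where 23.4% of all tested models had such groups. Because the genes were chosen on this contrast, nothing is read from these shares.

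NTF3 and BDNF, the ligands, had groups that overlapped. NTF3, which supports proprioceptive sensory neurons, stood at 9.08, 8.79 and 7.26 CPM in the DMSO libraries and at 7.20, 8.29 and 9.15 CPM in the GW0742 libraries. Its log2 fold change was -0.02 ± 0.15 (SE, edgeR adjusted p = 0.956). BDNF, best known for its part in synaptic plasticity, was low, at 1.66, 1.43 and 1.98 CPM under DMSO and 1.84, 1.25 and 1.96 CPM under GW0742. The log2 value of BDNF was -0.02 ± 0.27 (SE, edgeR adjusted p = 0.981). The reads behind BDNF ran from 19 to 33 per library, a number that limits the precision of its fold change. NTF4, another ligand of NTRK2, had 9, 4 and 16 reads in the DMSO libraries and 7, 11 and 10 in the GW0742 libraries, with a log2 fold change of 0.04 (edgeR adjusted p = 0.974).

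The spread of both ligands was like that of other genes at their level. With DMSO the coefficient of variation of NTF3 was 11.7%, where 2277 tested models with a mean within 1.5-fold of its own had a median of 11.3%. For BDNF it was 16.4%, where 1421 such models had a median of 20.5%.

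NGFR, the receptor shared by all neurotrophins, had 42, 18 and 30 reads with DMSO and 85, 91 and 47 reads with GW0742. Scaled to depth these are 2.49, 1.35 and 1.80 CPM and 6.51, 5.67 and 3.07 CPM. Every GW0742 library lay above every DMSO library, and GW0742 replicate 3 was nearest to the controls. The means were 1.88 ± 0.58 and 5.08 ± 1.8 CPM (SD, n = 3), a ratio of 2.70. Its log2 fold change of 1.41 ± 0.33 (SE) did not pass in edgeR (adjusted p = 0.107), and passed in DESeq2 (adjusted p = 0.0129). Without GW0742 replicate 3 the log2 value was 1.67 (edgeR adjusted p = 0.0569), and over all left-out libraries it lay between 1.20 and 1.67.

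The spread of NGFR among libraries was wide. Its coefficient of variation was 30.6% with DMSO and 35.3% with GW0742, the latter above that of 92.4% of 1902 tested models with a mean within 1.5-fold of its own, whose median was 15.2%. With DMSO it was above that of 71.5% of 1410 such models.

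A second model matched to the protein name of NGFR, ENSSSCG00000011333 (696 bases), is not a member and stood at 30.3, 33.3 and 33.9 CPM in controls and 30.4, 26.1 and 34.0 CPM in treated libraries. The log2 fold change of that model was -0.11 ± 0.11 (SE, edgeR adjusted p = 0.657). Per length it was above NGFR in each group, with means of 43.6 and 41.1 RPKM, and its groups overlapped where those of NGFR did not. The name rests on the protein match alone. Its CPM was above that of NGFR in every library. Unlike the reads of the further NTRK2 models given below, its reads were not added to those of NGFR. The fold change of NGFR therefore describes the member model alone, and that of a sum was not tested.

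NGFR is also a known marker of Schwann cells, the glia of peripheral nerves. Of 6 other markers of Schwann cells and glia 4 could be matched to a model, and SOX10 and S100B could not. ERBB3, the neuregulin receptor of Schwann cells, stood at 1.01, 0.30 and 1.02 CPM under DMSO and 1.91, 2.24 and 0.91 CPM under GW0742, with overlap, and did not pass (log2 1.08, edgeR adjusted p = 0.288). CDH19, a cadherin of Schwann cell precursors, had 2 reads in each DMSO library and 3, 6 and 5 reads in the GW0742 libraries. These were too few to test. The groups did not overlap, but the DMSO libraries lay under the floor of 3 reads and GW0742 replicate 1 at it. GFAP stood at 0.74 ± 0.32 and 0.85 ± 0.31 CPM and NCAM1, with the highest CPM of these markers, at 113 ± 9.3 and 104 ± 5.4 CPM (SD, n = 3), and both overlapped. In bulk samples more cells of a type and more RNA per cell cannot be told apart. The part of Schwann cells and glia in the values of NGFR was not tested.

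Endothelial markers were also higher with GW0742 in summed level. All 4 that could be matched, of 6, were tested, none was at 0, and their summed level ran from 49.9 to 72.8 CPM in the DMSO libraries and from 81.0 to 109.9 CPM in the GW0742 libraries. None passed in edgeR (0.262% over all models), and DESeq2 called PECAM1 and KDR higher (1.46% over all models). The median log2 value was 1.36, beside -0.0015 over all tested models. In GW0742 replicates 1, 2 and 3 the endothelial adhesion molecule PECAM1 reached 28.3, 35.0 and 15.6 CPM. Among these libraries replicate 3 was also lowest for NGFR, and for MMP9 and EGR1, given below. In DMSO replicates 1, 2 and 3 PECAM1 stood at 11.9, 12.2 and 11.1 CPM. There NGFR stood at 2.49, 1.35 and 1.80 CPM, on 42, 18 and 30 reads, in another order, while the PECAM1 values lay close together. PECAM1 had a log2 fold change of 1.16 (edgeR adjusted p = 0.0977) and passed in edgeR without GW0742 replicate 3 (adjusted p = 0.00983). Without any other single library PECAM1 did not pass (edgeR adjusted p from 0.1497 to 0.319). The log2 value of PECAM1 was 0.897 without GW0742 replicate 2, which held its highest value. In limma on log2(RPKM + 1) and log2(RPKM + 0.1) it was 0.815 and 0.892 (adjusted p = 0.367 and 0.370). TIE1, another of the 4 markers, had groups that overlapped and passed in edgeR without GW0742 replicate 3 (log2 2.004, adjusted p = 0.0476). KDR, a receptor of vascular endothelial growth factor, stood at 1.42 ± 0.34 and 4.14 ± 1.9 CPM (SD, n = 3, log2 1.56, edgeR adjusted p = 0.107). CLDN5, a tight junction protein with the highest CPM of them, stood at 48.3 ± 11 and 64.9 ± 2.1 CPM (SD, n = 3). Their part in the values of NGFR was not tested.

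**Figure D1:**
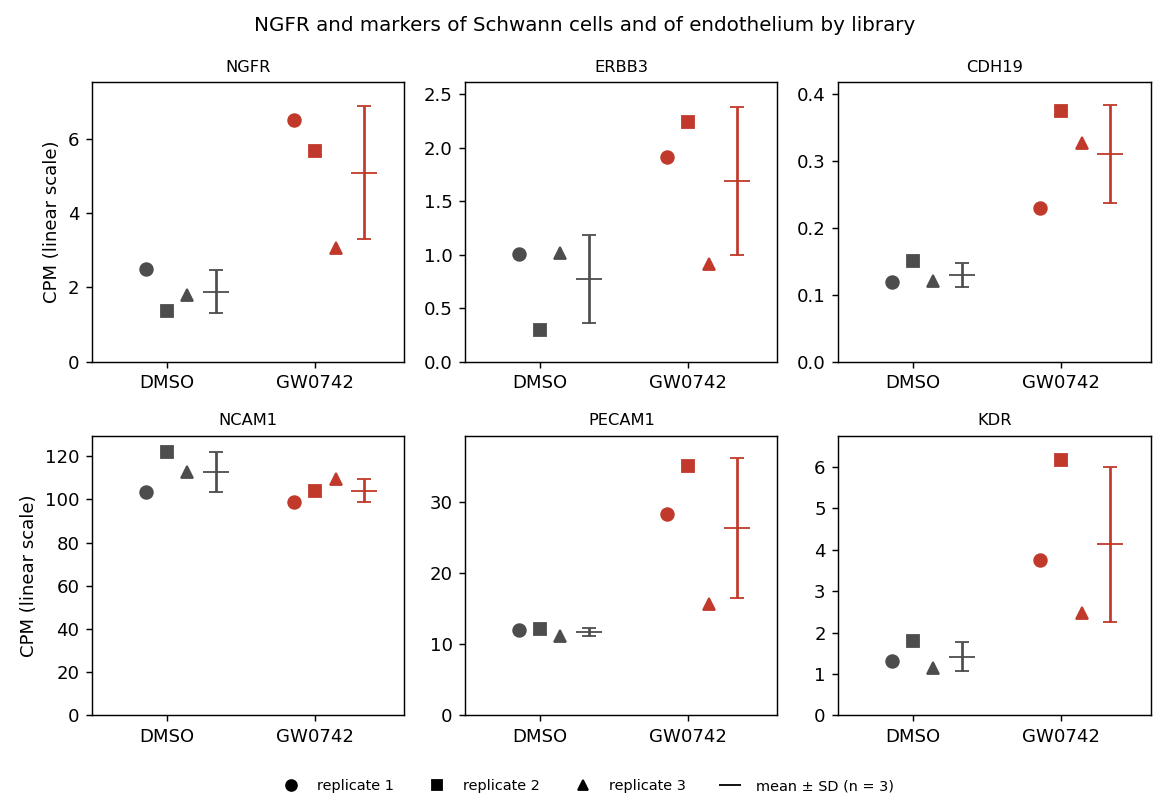
CPM of NGFR, of the Schwann cell and glia markers ERBB3, CDH19 and NCAM1 and of the endothelial markers PECAM1 and KDR by library, with the mean and SD of 3 libraries, each panel on its own axis from 0. NGFR, PECAM1 and KDR have every GW0742 library above every DMSO library, as 11.4% of all tested models do. CDH19 does too, at 2 reads in each DMSO library, under the floor of 3 reads. ERBB3 overlaps, as does GFAP, which is not drawn, and NCAM1 lies between 98.7 and 122 CPM throughout.

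For neuron markers the summed level was 97.7 to 107 CPM under DMSO and 94.9 to 109 CPM under GW0742. Most of it came from TUBB3, with means of 56.2 and 52.7 CPM, and UCHL1, with 42.8 and 45.3 CPM. The others matched, SNAP25, SYP, PRPH, STMN2 and NEFL, had group means of 1.40 CPM or less. Melanocyte markers summed to 16.5 to 19.9 and 15.4 to 21.1 CPM. MLANA led them at 15.3 and 14.9 CPM, and MITF, TYR, DCT and PMEL had group means of 2.08 CPM or less. TYR, the key enzyme of pigment synthesis, was at 0 in every DMSO library. Keratinocyte markers, led by KRT5, summed to between 2.08 and 4.29 CPM in all libraries, and mast cell and leukocyte markers, led by KIT, to between 15.996 and 23.4 CPM. Muscle and smooth muscle markers, led by ACTA2, summed to 4648 to 4838 CPM in controls and 3551 to 4178 CPM in treated libraries. Fibroblast markers, led by COL1A2, summed to 52277 to 56553 and 46528 to 51964 CPM, and chondrocyte markers, led by ACAN, to 1436 to 1488 and 1153 to 1231 CPM. ACAN was the 1 marker of these 7 lists that passed in edgeR (0.262% over all models), and it fell (log2 -0.50, adjusted p = 0.0185). The call of ACAN was lost without DMSO replicate 1 or 3 or GW0742 replicate 1 (edgeR adjusted p = 0.101, 0.0815 and 0.105). It was also lost in limma on log2(RPKM + 1) and log2(RPKM + 0.1) (adjusted p = 0.0648 and 0.0690). DESeq2 also called ACTA2, CNN1 and THY1 lower (1.65% over all models).

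The Trk receptors were at the low end. NTRK3, the receptor of neurotrophin-3, had 20, 13 and 23 reads with DMSO and 7, 14 and 9 reads with GW0742, or 1.19, 0.98 and 1.38 CPM and 0.54, 0.87 and 0.59 CPM. All GW0742 libraries lay below all DMSO libraries. The log2 fold change was -0.81 ± 0.30 (SE), which did not pass in edgeR (adjusted p = 0.225) or in DESeq2 (adjusted p = 0.636). On log2(RPKM + 1) it was -0.21, a scale that understates changes of low genes.

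NTRK2, the receptor of BDNF, was the 1 gene of the 6 with too few reads to test. It had 9, 7 and 10 reads in the DMSO libraries and 2, 12 and 5 in the GW0742 libraries, so the GW0742 libraries lay both above and below the controls. A pair of further models carry its protein name, and the shorter of them, of 216 bases, held 0 reads, once rounded, in every library. With their reads added, NTRK2 had 16, 13 and 18 reads with DMSO and 7, 20 and 14 with GW0742, and a log2 fold change of -0.16 ± 0.33 (SE, edgeR adjusted p = 0.841).

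SORT1, a sorting receptor that binds neurotrophin proforms and is also used for traffic to lysosomes, had the highest level per length of the receptors. It stood at 137, 153 and 129.6 CPM in the DMSO libraries, and the GW0742 libraries, at 126, 125 and 139.6 CPM, overlapped with them. The log2 fold change was -0.10 ± 0.08 (SE, edgeR adjusted p = 0.546). Its means were 139.99 ± 12 and 130.2 ± 8.1 CPM (SD, n = 3). With DMSO its coefficient of variation was 8.64%, above that of 85.9% of 1006 tested models of like mean. With GW0742 it was 6.22%, above that of 55.3% of 1067 such models.

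**Figure D2:**
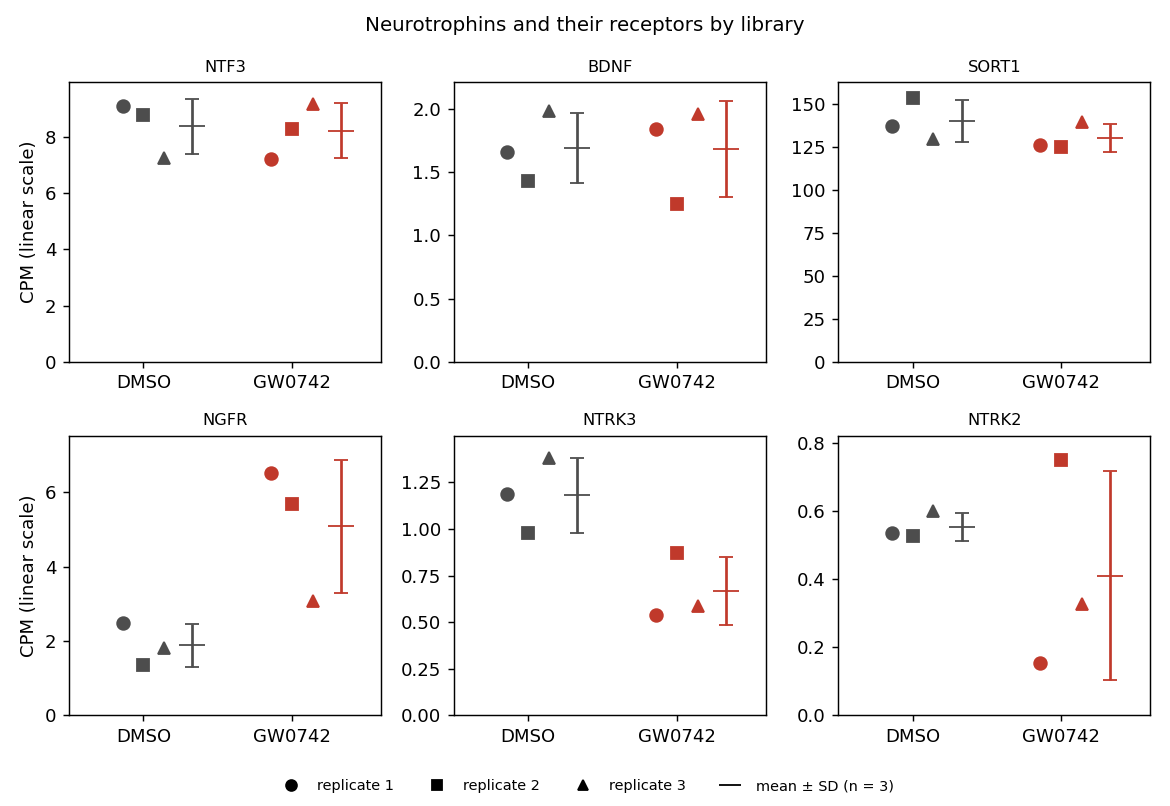
CPM of 6 neurotrophins and receptors by library, with the mean and SD of 3 libraries, each panel on its own axis from 0. The groups overlap for NTF3, BDNF, SORT1 and NTRK2 and are apart for NGFR, with GW0742 at 3.07 CPM or more, and for NTRK3, with GW0742 at 0.87 CPM or less.

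**Figure D3:**
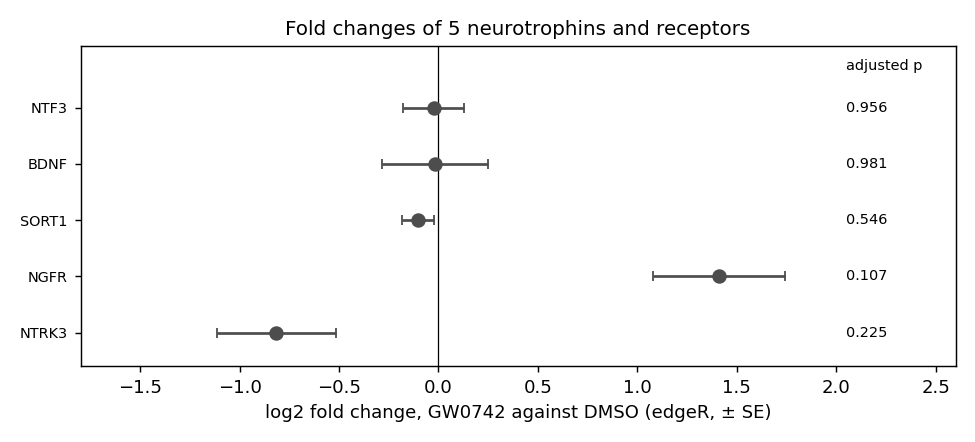
Log2 fold change of GW0742 against DMSO with its SE in edgeR, for the 5 tested neurotrophins and receptors, with the adjusted p on the right. NGFR stands at 1.41 and NTRK3 at -0.81, the other 3 lie between -0.10 and -0.02, and none of the 5 passed.

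To compare levels between genes, RPKM was used, the number of reads scaled to the depth of the library and to the length of the model. SORT1 was highest in both groups, at 66.0 ± 5.1 RPKM with DMSO and 62.5 ± 3.4 RPKM with GW0742 (SD, n = 3), above 94.1% and 93.6% of all models. NTF3 followed at 10.1 ± 1.2 RPKM in both groups, above 69.5% and 69.2% of models. No library of NTF3 reached those of SORT1.

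NGFR came next, at 1.59 ± 0.50 RPKM with DMSO and 4.33 ± 1.5 RPKM with GW0742 (SD, n = 3), above 40.2% and 53.5% of all models. The second model matched to its protein name is left out of this order. At means of 43.6 and 41.1 RPKM, that model lay above NTF3 in both groups. BDNF stood at 1.049 ± 0.18 and 1.051 ± 0.21 RPKM, and its libraries overlapped with those of NGFR with DMSO and lay below them with GW0742. NTRK3 and NTRK2 were last and overlapped in both groups. With DMSO they stood at 0.484 ± 0.074 and 0.470 ± 0.0063 RPKM, and with GW0742 at 0.284 ± 0.071 and 0.343 ± 0.24 RPKM. For the member model of each Trk receptor, all libraries lay below all libraries of BDNF of the same group. The RPKM values of the NTRK2 models added up to 1.02 in GW0742 replicate 2, where BDNF stood at 0.816 RPKM. These models differ in length, so that sum is no level per length of the gene.

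**Figure D4:**
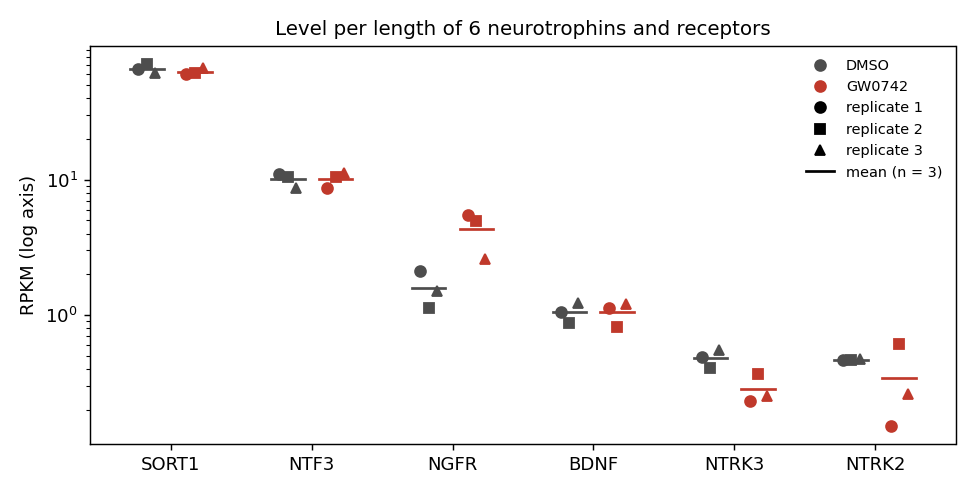
RPKM of 6 neurotrophins and receptors on a log axis, by library (symbols) for DMSO (grey) and GW0742 (red), with lines at the means of 3 libraries. SORT1 lies at 59.8 RPKM or more and both Trk receptors, NTRK2 as its member model alone, at 0.614 RPKM or less in every library.

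Of 108 genes in 6 lists of the neurotrophin pathway, 80 could be matched to a model and 71 were tested. In edgeR none passed in either direction (0.262% over all models), while 17 had an unadjusted p under 0.05 (16.8% over all models). DESeq2 called 3 higher and 3 lower (1.46% and 1.65% over all models). Log2 values were above 0 for 37 and below 0 for 34, with a median of 0.01 beside -0.0015 over all tested models. Groups did not overlap for 22 of the 71, where 23.4% of all models had such groups.

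Enzymes and inhibitors that process neurotrophins had 8 tested genes, 5 with log2 values above 0 and 3 below. FURIN, which cuts the proforms inside the cell, stood at 106 ± 6.2 and 99.96 ± 5.3 CPM (SD, n = 3, log2 -0.08, edgeR adjusted p = 0.573). MMP9, a gelatinase, had the lowest p of the list, at 5.46, 7.43 and 7.92 CPM in the DMSO libraries and 23.1, 23.3 and 12.2 CPM in the GW0742 libraries. For MMP9 the log2 fold change was 1.49 (edgeR adjusted p = 0.0651, DESeq2 adjusted p = 2.12e-06), and MMP9 passed in edgeR without GW0742 replicate 3 (adjusted p = 0.013). Without any other single library MMP9 did not pass (edgeR adjusted p from 0.104 to 0.249).

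Sortilin relatives and co-receptors had 7 tested genes, 3 with log2 values above 0 and 4 below. MAGED1, an adaptor that binds the inner part of NGFR, had the lowest p, at 526 ± 13 and 457 ± 12 CPM (SD, n = 3). With a log2 value of -0.20 it did not pass in edgeR (adjusted p = 0.129), and it passed in DESeq2 (adjusted p = 0.0259). Effectors of NGFR had 11 tested genes, 5 above 0 and 6 below. BCL10, an adaptor of NF-kappaB signalling, stood at 16.7, 24.1 and 12.1 CPM under DMSO and 5.05, 8.85 and 9.87 CPM under GW0742, without overlap. BCL10 had a log2 fold change of -1.14 (edgeR adjusted p = 0.125, DESeq2 adjusted p = 0.00323).

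Trk adaptors and kinases, which carry the signal from the receptor to the Ras and MAP kinase cascade, had 22 tested genes, 11 above 0 and 11 below. SH2B3, an adaptor that restrains kinase signalling, had the lowest p, at 30.7 ± 0.22 and 38.7 ± 2.9 CPM (SD, n = 3, log2 0.34, edgeR adjusted p = 0.109), and DESeq2 did not call it (adjusted p = 0.0702). PTPN11, a phosphatase with the highest CPM of the list, stood at 313 ± 9.4 and 315 ± 21 CPM. No gene of this list was called by edgeR or DESeq2.

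Early response and feedback genes, which growth factors switch on within minutes to hours, had 12 tested members, 8 with log2 values above 0, and a median of 0.19. JUNB had the lowest p, at 138, 151 and 163 CPM in controls and 189.8, 189.1 and 193 CPM in treated libraries (log2 0.34, edgeR adjusted p = 0.0867, DESeq2 adjusted p = 0.00253). EGR1, a zinc finger transcription factor, stood at 6.05, 7.81 and 6.72 CPM in the DMSO libraries and 15.1, 25.2 and 10.8 CPM in the GW0742 libraries. The log2 fold change of EGR1 was 1.32 (edgeR adjusted p = 0.0961, DESeq2 adjusted p = 0.000342), and it passed in edgeR without GW0742 replicate 3 (adjusted p = 0.0476). Without GW0742 replicate 2, which held its highest value, the log2 value of EGR1 was 0.92 (edgeR adjusted p = 0.108). EGR1 did not pass without any other single library (edgeR adjusted p up to 0.340). ATF3, a stress-induced factor, stood at 92.9 ± 4.9 and 75.7 ± 3.8 CPM (SD, n = 3, log2 -0.30, edgeR adjusted p = 0.107), and it passed as lower in DESeq2 (adjusted p = 0.0304).

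Other neurotrophic factors and receptors had 11 tested genes, 5 above 0 and 6 below. MDK, a heparin-binding growth factor, had the lowest p, at 88.7 ± 5.5 and 74.1 ± 7.3 CPM (SD, n = 3, log2 -0.26, edgeR adjusted p = 0.187). IL6ST, the shared receptor chain of LIF and CNTF signalling, had the highest CPM of them, at 96.6 ± 3.1 and 91.5 ± 8.6 CPM.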

How the data were processed

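Each deposited library table lists gene models with, per the file headers, 2 measures made by the authors: estimated counts and RPKM. In the deposited series table the authors' RPKM values are the same, with 0 that differ by over 0.01%. The submitters' processing notes name the build Sscrofa 10.2. With aligner, counting program and annotation release not given in the sources used here, none is assumed.

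Rounded estimated counts were kept where filterByExpr passed them at a minimum count of 10. TMM factors gave the effective library sizes, also for CPM. GW0742 was compared with DMSO by edgeR 4.0.16 (quasi-likelihood F-test, two-sided, R 4.3.3), and p-values were adjusted by Benjamini-Hochberg over all tested models, with calls under 0.05. SE is the absolute log2 fold change over the square root of F. Tests were checked on simulated data. No pair of libraries agreed within sampling noise (chi-square per degree of freedom at least 4.06).

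Symbols came from a gene name table (11147 models) or, where protein match and pathway identifier led to 1 unused symbol, from the RefSeq table of Sscrofa 11.1 (567 models). No coordinates are printed, because the builds differ.

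The members and lists were chosen with earlier results of these data known. Some members and list genes are not reported here, and all counts of members and list genes cover those described. Named are the members described, PPARD, ANGPTL4, PDK4, NTF4, each pathway list's called genes or else its lowest p and each marker list's tested gene of highest CPM. Further names, and the sum of the NTRK2 models, were picked with their values in view.

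As alternatives, edgeR was run with median-of-ratios size factors, without a filter beyond 1 read, on unrounded counts, with the replicate number as a block and without each library. DESeq2 1.42.0 and limma 3.58.1, on log2(RPKM + 1) and log2(RPKM + 0.1), were also run, and calls were counted at 0.01 and at folds of 2 or more.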

Additional observations from a re-analysis of the deposited data

How the results depend on the processing

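The number of the 5 tested genes higher in edgeR was 0, and 1 in DESeq2 (NGFR), and none was lower under any alternative. With the replicate block NGFR gave a log2 value of 1.39 (edgeR adjusted p = 0.175) and NTRK3 -0.83 (0.345), and ACAN, at -0.50, lost its call (edgeR adjusted p = 0.0990). Over its 13 alternatives NGFR ran from 1.01 to 1.67, with adjusted p-values from 0.0129 to 0.276, and NTRK3 from -1.06 to -0.21, with 0.212 to 0.636. No pairing by replicate number was seen over all tested models. Deviations of same-numbered libraries from their group means correlated between -0.0992 and -0.0002, and 0 of 6 libraries correlated best with their own number. With 3 libraries per group these correlations depend on each other and cannot settle the design. Whether libraries were paired is not in the labels. All 6 libraries came from 1 pig.

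Pathway list genes higher were 0, and 3 in DESeq2 and 0 to 2 over left-out libraries, with 2 (MMP9 and EGR1) without GW0742 replicate 3. Those lower were 0, and 3 in DESeq2. Directions turned near 0. BDNF ran from -0.15 to 0.16 over left-out libraries, turning to 0.12 and 0.16 without DMSO replicate 3 and GW0742 replicate 2. NTF3 ran from -0.12 to 0.061, turning to 0.04, 0.01 and 0.061 without DMSO replicate 1, DMSO replicate 2 and GW0742 replicate 1. NTF4 ran from -0.24 to 0.55, turning to -0.05, -0.24 and -0.03 without DMSO replicate 1, DMSO replicate 2 and GW0742 replicate 2. Among 272 values of fold changes under alternatives, 246 kept direction and side of the threshold, 6 lost the call, 12 gained it and 8 turned, and the cause was not tested. Depth limits NTRK2, NTF4 and CDH19, at or under 16 reads in each library.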

Other observations

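Receptors of other neurotrophic factors were also measured, and none of those tested passed in edgeR. RET, the kinase that GDNF family ligands act through, stood at 8.49 ± 0.79 and 10.1 ± 1.7 CPM (SD, n = 3), and its co-receptors GFRA3 and GFRA2 at 4.81 ± 0.92 and 5.54 ± 1.4 CPM and at 3.09 ± 0.92 and 2.99 ± 0.67 CPM. GFRA1 had 5, 2 and 8 reads in the DMSO libraries and 15, 11 and 6 in the GW0742 libraries, too few to test. CNTFR, the receptor of ciliary neurotrophic factor, had its highest value, 7.73 CPM, in DMSO replicate 2, where the other 5 libraries held 1.76 to 2.67 CPM (log2 -1.06, edgeR adjusted p = 0.278). Without that library the log2 value was -0.34 (adjusted p = 0.470).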
